A study of Homo sapiens with 36 samples.

Results

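Genes of glucose metabolism and of the hypoxia response were followed through 16 groups of prostate cancer cells. The set held 40 genes chosen by symbol, and 37 of them had a probe that named 1 gene, out of 20046 genes so measured on the array. SLC16A1, SLC16A3 and CA9 were not analysed here. The cells were LNCaP, an androgen-dependent line grown from a human prostate cancer metastasis, and c42b, a castration-resistant derivative of LNCaP. Each line carried 1 of 4 vectors in stable form: shGA, a short hairpin against GABPA (knockdown); NT, the matching non-targeting hairpin; pLVX GABPa, which the labels give as GABPA overexpression (OE); or pLVX EV, its empty vector. GABPA encodes the part of the GABP complex that contacts DNA, a member of the ETS family. All cells, controls included, had 48 h in charcoal-stripped serum, which is low in steroids, and then received 1 nM R1881, a synthetic androgen, or the ethanol vehicle. The pLVX system is induced by doxycycline, and whether doxycycline was given to these cultures is not given in the sources used here. How many hairpins or clones stand behind shGA is not given either. Illumina HT-12 bead arrays were used, with 2 samples in each group of line, vector and treatment, so 32 samples in all. The study's methods speak of biological triplicates for the arrays. The labels instead number 2 samples in each group and mark 4 further arrays TR, which were taken here as repeat arrays of the same samples, a reading that the labels do not spell out. The p-values reflect the spread between the 2 numbered samples, and the labels do not say whether these were separate cultures.

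Glycolysis splits glucose to pyruvate in the cytosol. Glucose enters through GLUT transporters, hexokinases trap it as a phosphate, and phosphofructokinase commits it to breakdown. Lactate dehydrogenase then turns pyruvate to lactate, while pyruvate dehydrogenase kinases hold pyruvate back from the mitochondrion. The pentose phosphate pathway branches off after hexokinase and yields NADPH and ribose. Under low oxygen the factors HIF1A and EPAS1 escape the EGLN prolyl hydroxylases and switch on many of the same enzymes together with VEGFA, BNIP3 and others, through the DNA core ACGTG. The normal prostate epithelium is known for secreting citrate, and androgen is known to raise its energy metabolism.

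All levels below are log2 signals after quantile normalization, read from the brightest probe of each gene, and all differences are log2 differences between such levels. A gene was called when the adjusted p of limma, over all probes, was under 0.05. The background level was set at 7.78, the 95th percentile of 437 probes for olfactory receptors, and 31 of the 37 genes had a mean above it, as did 9941 of all 20046 genes. Levels of different probes cannot be set against each other. The genes below that level were SLC2A3 (7.37), PDK1 (6.88), ADM (7.77), EPAS1 (7.51), EGLN1 (7.67) and EGLN3 (6.98). Prostate luminal markers, such as KLK3 and KRT8, were above background in both lines for all 8 of 8 measured, and basal and endothelial markers for 0 of 2 each. Of the stromal markers 3 of 6 in c42b and 4 of 6 in LNCaP were above it, VIM and COL1A1 among them, and of the leukocyte markers CD68 alone, 1 of 4. In bulk samples fewer cells of a type and less RNA per cell cannot be told apart.

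The promoters of the 5 genes called on knockdown are shown here, since GABP binds the ETS core CCGGAA. They come from the RefSeq table for GRCh38.p14, which matched 35 of the 40 genes, and run from 250 bases before to 50 bases after the start site, 5′ to 3′ along the gene. SLC2A3, PFKFB2, SLC16A1, VEGFA and BNIP3L had no entry. PFKP lies on the plus strand at chr10:3067720-3068019, TKT on the minus strand at chr3:53255973-53256272, ALDOC on the minus strand at chr17:28576846-28577145, HK2 on the plus strand at chr2:74833877-74834176 and PFKFB4 on the minus strand at chr3:48556754-48557053. Capitals mark the ETS core CCGGAA, the HIF core ACGTG or an androgen receptor element AGAACA, each on either strand.
PFKP: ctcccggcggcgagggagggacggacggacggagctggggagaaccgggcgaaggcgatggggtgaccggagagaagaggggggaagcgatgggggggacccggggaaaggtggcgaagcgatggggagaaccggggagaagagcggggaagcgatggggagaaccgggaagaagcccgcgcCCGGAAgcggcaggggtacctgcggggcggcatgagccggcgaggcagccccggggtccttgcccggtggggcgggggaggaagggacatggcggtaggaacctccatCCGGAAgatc
TKT: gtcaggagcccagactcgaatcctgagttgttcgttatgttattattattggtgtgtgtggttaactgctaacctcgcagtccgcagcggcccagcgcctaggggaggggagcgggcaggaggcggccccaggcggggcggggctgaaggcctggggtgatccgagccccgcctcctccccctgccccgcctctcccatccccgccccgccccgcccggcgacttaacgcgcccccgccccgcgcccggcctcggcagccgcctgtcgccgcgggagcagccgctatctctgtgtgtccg
ALDOC: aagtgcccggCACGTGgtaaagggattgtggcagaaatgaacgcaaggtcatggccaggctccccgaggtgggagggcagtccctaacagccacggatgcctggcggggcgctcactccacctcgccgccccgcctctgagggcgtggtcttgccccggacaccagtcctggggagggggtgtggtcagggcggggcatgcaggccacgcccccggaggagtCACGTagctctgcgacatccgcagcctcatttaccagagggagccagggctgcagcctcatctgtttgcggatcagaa
HK2: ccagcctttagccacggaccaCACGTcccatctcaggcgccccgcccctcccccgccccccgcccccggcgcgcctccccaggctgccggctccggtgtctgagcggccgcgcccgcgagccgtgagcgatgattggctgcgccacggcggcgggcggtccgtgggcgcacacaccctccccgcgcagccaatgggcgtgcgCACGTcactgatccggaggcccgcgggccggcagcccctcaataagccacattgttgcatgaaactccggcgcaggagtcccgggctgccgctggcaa
PFKFB4: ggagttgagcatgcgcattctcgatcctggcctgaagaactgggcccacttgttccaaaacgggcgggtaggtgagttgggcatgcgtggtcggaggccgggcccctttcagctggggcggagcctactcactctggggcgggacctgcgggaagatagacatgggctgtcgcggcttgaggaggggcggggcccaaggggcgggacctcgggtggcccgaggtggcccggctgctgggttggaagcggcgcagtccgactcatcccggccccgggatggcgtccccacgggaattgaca
PFKP alone of the 5 held the ETS core, at 2 places that begin 68 bases before the start site and at base 41 after it. ALDOC and HK2 held the HIF core in the form ACGTG, which in ALDOC includes 1 palindrome read on both strands. Other forms of the HIF core were not searched for, so its absence from a window is not shown. No AGAACA lay in these 5 windows. Of the 35 matched genes of this set 6 held the ETS core (17.1%), 13 the HIF core (37.1%) and 4 the androgen receptor element (11.4%), against 17.2%, 21.4% and 14.8% of all 35116 RefSeq promoters. Such a match is a description of letters only and does not show binding.

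The plot of all 37 genes over the 32 samples shows where they varied. In most genes the samples were set apart by line or by vector. Of the variance of the 16 group means, the line held 91.0% for PGK1, 84.1% for LDHB and 83.0% for SLC2A1. The vector held 87.9% for LDHA, 87.1% for PFKFB3 and 78.7% for TKT. The R1881 arm held 90.1% for SLC2A3 and 31.8% for VEGFA, and at most 11.6% for any of the other 35.

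**Figure D1:**
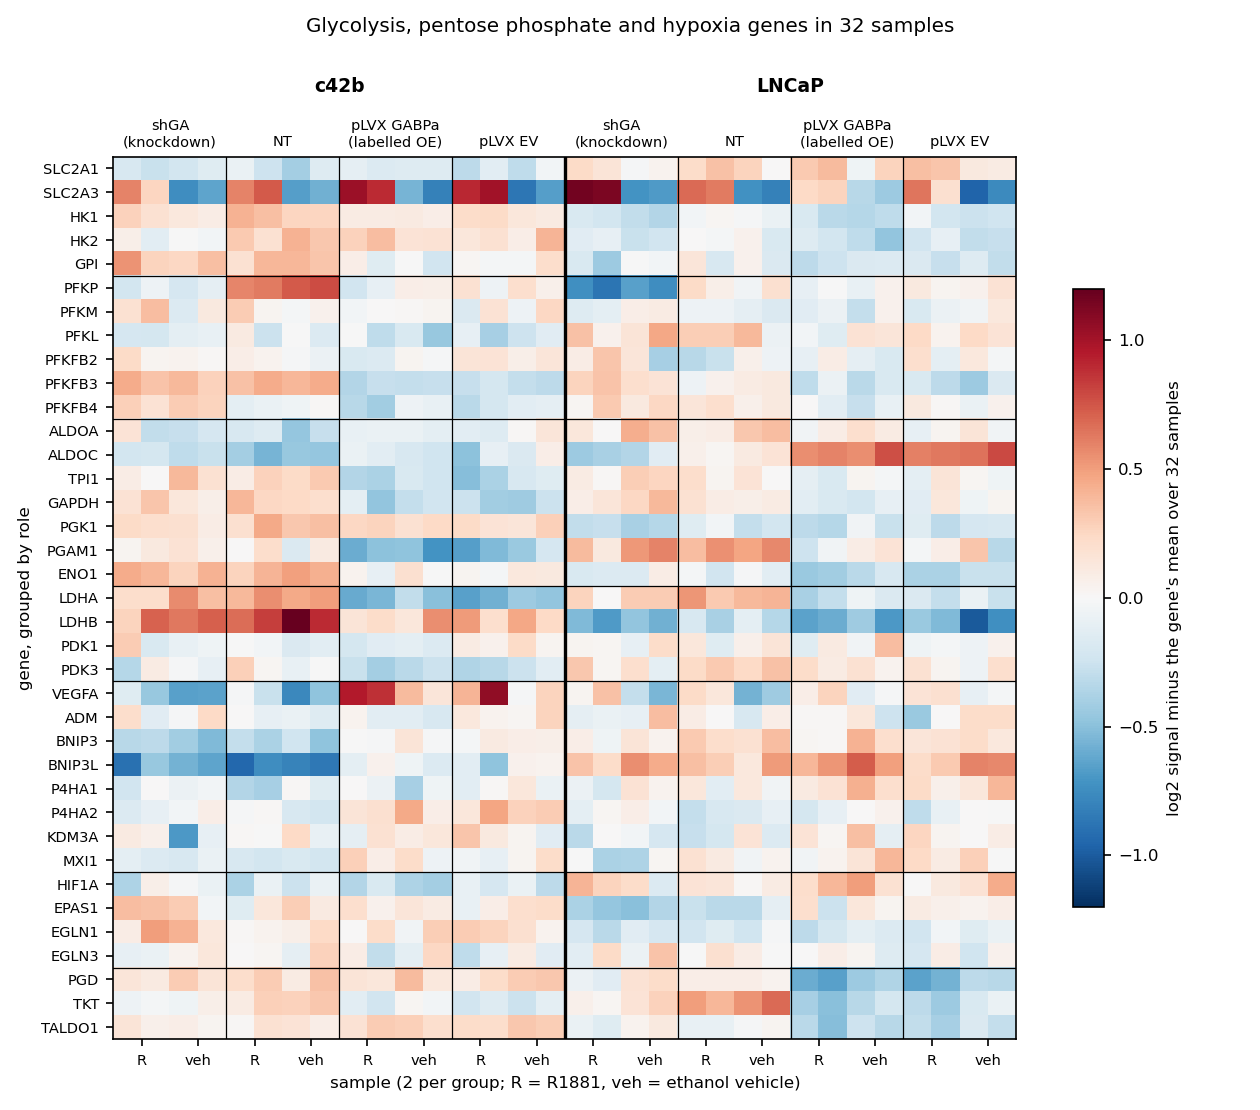
Log2 signal of each of the 37 genes (rows, grouped by role) in each of the 32 samples (columns), as the difference from the mean of that gene over all samples; red is higher and blue lower. SLC2A3 follows R1881, LDHB and BNIP3L follow the line, and LDHA and PFKFB3 follow the type of vector.

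The first question was whether GABPA knockdown moved these genes, and the GABPA probe was read first. In c42b it read 7.48 and 7.77 under R1881 and 7.18 and 7.56 under vehicle in shGA cells, against 7.78, 7.99, 7.96 and 8.11 in NT cells. It was called lower (adjusted p = 0.0215), and since all 4 shGA samples lay below background, the fall is given as at least 1.13-fold. In LNCaP it averaged 7.70 ± 0.09 in shGA cells and 8.08 ± 0.18 in NT cells (SD, n = 4 each), with no overlap and without passing the test (adjusted p = 0.101).

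On knockdown PFKP, the platelet-type phosphofructokinase, fell in both lines. In LNCaP cells ALDOC, the brain-type aldolase, and TKT, the transketolase of the pentose phosphate pathway, were also lower. In c42b cells HK2, the inducible hexokinase, was lower and PFKFB4, which makes the phosphofructokinase activator fructose 2,6-bisphosphate, was higher. The other 32 genes did not pass in either line. Of the 37 genes 1 was called higher and 2 lower in c42b, against 1.72% and 1.53% of all genes tested, and 0 higher and 3 lower in LNCaP, against 1.27% and 1.2%. The median difference over the 37 genes was -0.03 in c42b and -0.02 in LNCaP, and 0.00 over all genes in each line.

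PFKP (probe ILMN_1805737) in c42b read 9.59, 9.75, 9.61 and 9.71 in the shGA samples, against 10.39, 10.43, 10.55 and 10.60 in the NT samples. In LNCaP it read 9.07, 8.94, 9.16 and 9.07 in the shGA samples, against 10.04, 9.88, 9.77 and 10.00 in the NT samples. The groups did not overlap in either line. The differences were -0.83 (SE 0.083, adjusted p = 5.87e-08) in c42b and -0.86 (SE 0.083, adjusted p = 2.62e-08) in LNCaP, or 0.563-fold and 0.549-fold. The fall was present in both arms: -0.74 with R1881 and -0.92 with vehicle in c42b, and -0.96 and -0.77 in LNCaP, and the effect of the knockdown did not differ between the arms by test (adjusted p = 0.944 and 0.935) nor between the lines (0.03, SE 0.117, adjusted p = 0.991). The other vectors set these values apart. In LNCaP the 4 shGA samples (8.94 to 9.16) lay below all 12 samples of the other vectors (9.71 to 10.04). In c42b the 4 shGA samples (9.59 to 9.75) fell within the 8 pLVX samples (9.58 to 10.01), and the NT samples stood above all others. A second PFKP probe, below background at 7.61, was not called (adjusted p = 0.91 in c42b and 0.907 in LNCaP). With the mean over both probes, the differences were -0.46 in c42b and -0.48 in LNCaP, and both calls were kept.

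TKT in LNCaP read 12.04, 12.00, 12.14 and 12.25 in the shGA samples, against 12.48, 12.38, 12.52 and 12.66 in the NT samples. It was lower by 0.40 (SE 0.078, adjusted p = 0.00313), with no overlap. The 8 pLVX samples of LNCaP lay lower still, between 11.48 and 11.90, so that the shGA samples stood between the vectors. In c42b TKT averaged 11.96 in shGA cells and 12.22 in NT cells, with a log2 difference of -0.26 (adjusted p = 0.128).

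ALDOC read 11.28, 11.33, 11.36 and 11.58 in the LNCaP shGA samples, against 11.78, 11.74, 11.83 and 11.88 in the NT samples, a fall of 0.41 (SE 0.087, adjusted p = 0.00724). Without the first vehicle sample of the LNCaP shGA group it was -0.36 and did not pass (adjusted p = 0.0699). In c42b it read 11.50, 11.50, 11.42 and 11.45 in the shGA samples, against 11.31, 11.16, 11.26 and 11.25 in the NT samples, that is higher by 0.22 without passing the test. The difference of the knockdown effect between the lines, c42b minus LNCaP, did pass, at 0.64 (SE 0.123, adjusted p = 0.0196). ALDOC was the 1 of the 37 that passed that test of the line, against 0.958% of all genes. The call was lost with normexp background correction (adjusted p = 0.0523) and in 9 of the 32 runs that left out 1 sample, with an adjusted p of up to 0.0917.

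HK2 in c42b read 8.74, 8.54, 8.66 and 8.63 in the shGA samples, against 8.98, 8.86, 9.08 and 8.99 in the NT samples, lower by 0.34 (SE 0.083, adjusted p = 0.0368). PFKFB4 read 8.99, 8.88, 9.01 and 8.97 in the shGA samples, against 8.60, 8.63, 8.66 and 8.72 in the NT samples, higher by 0.31 (SE 0.080, adjusted p = 0.0458). Neither pair of groups overlapped, and for both genes the shGA samples of c42b lay outside the range of all 12 samples of the other vectors. Both calls were near the threshold: HK2 kept its call in 25 and PFKFB4 in 8 of the 32 runs that left out 1 sample. In LNCaP the differences were -0.15 for HK2 and 0.04 for PFKFB4, neither passing.

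Other probes of the same genes did not always follow the brightest one. For LDHA, the muscle-type lactate dehydrogenase subunit, the brightest probe gave -0.14 in c42b (adjusted p = 0.72) and -0.19 in LNCaP (adjusted p = 0.495). A second LDHA probe with a mean of 12.86 gave -0.39 (adjusted p = 0.0171) and -0.36 (adjusted p = 0.0386), and passed in both lines. For PGK1, the first ATP-forming kinase of glycolysis, a second probe with a mean of 9.81 gave -0.40 in c42b (adjusted p = 0.00531), while the brightest gave -0.15 (adjusted p = 0.605).

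**Figure D2:**
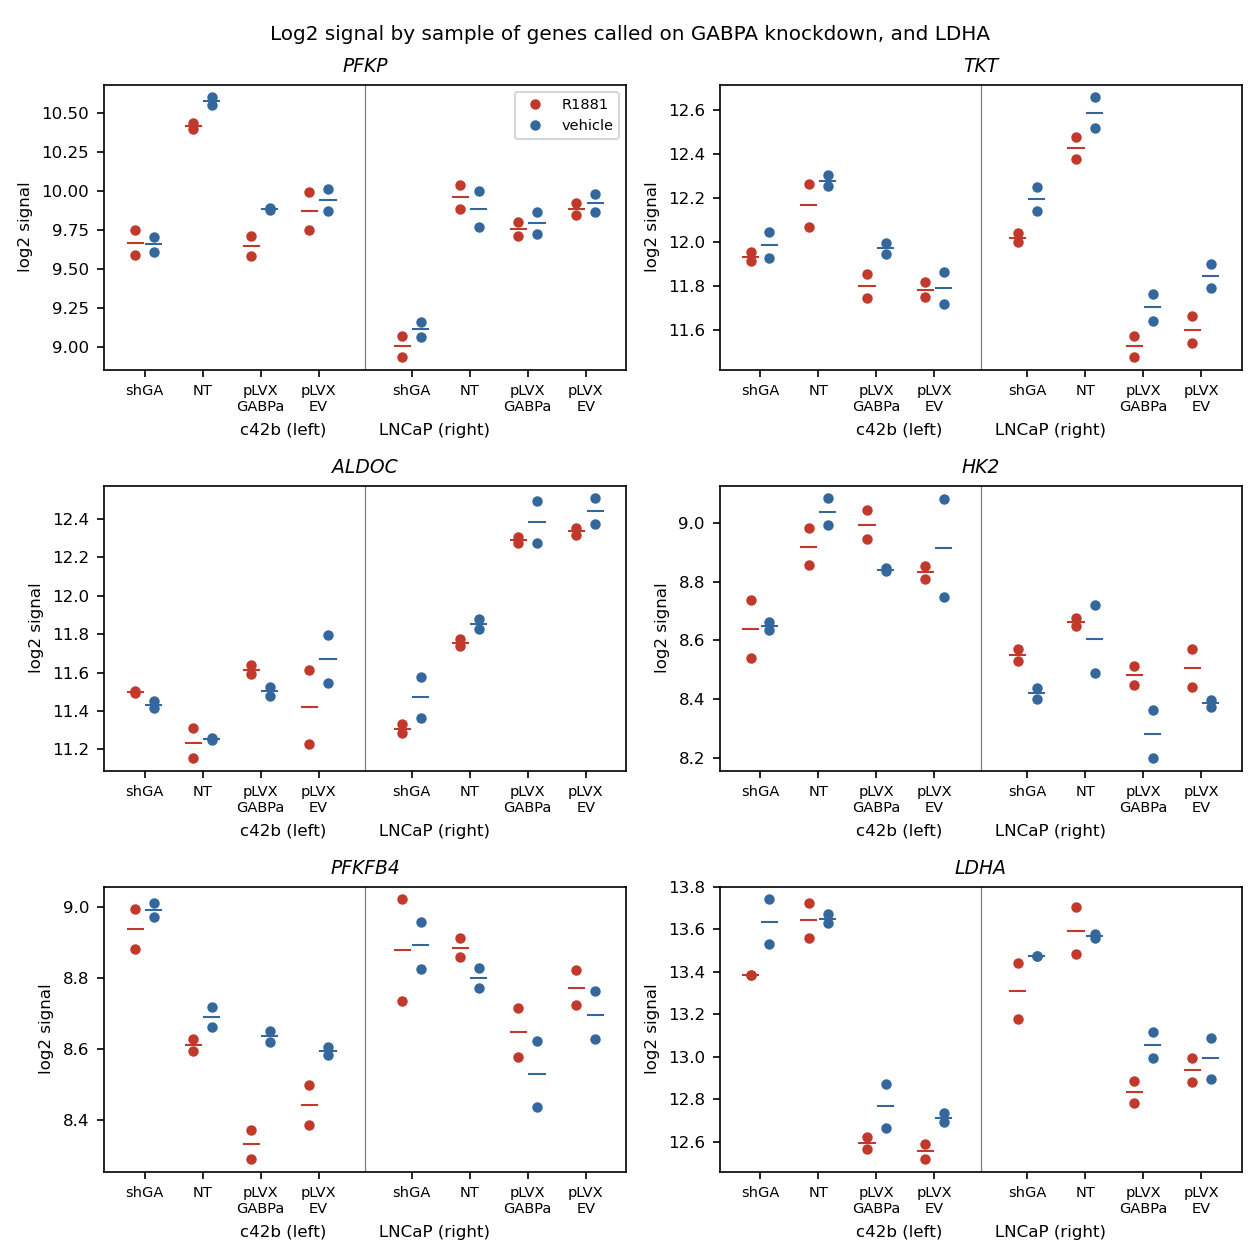
Log2 signal (y axis) by sample of the 5 genes called on knockdown, and of LDHA, in the 4 vectors of c42b (left of the line) and LNCaP (right), with R1881 in red and vehicle in blue; points are the 2 samples of a group and bars their mean. PFKP in shGA cells lies below NT cells in both lines, and the c42b NT samples stand above every other c42b sample.

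The 68 measured genes near these pathways were listed from pathway knowledge, with earlier results of these data known. On knockdown 5 of them were higher and 0 lower in c42b, and 5 were higher and 2 lower in LNCaP. Over all genes 1.72% were higher and 1.53% lower in c42b, and 1.27% and 1.2% in LNCaP. ENO2, the neuronal enolase, was higher by 0.72 in c42b (adjusted p = 4.74e-06; 8.41 ± 0.12 in shGA cells and 7.69 ± 0.07 in NT cells, of which 3 of 4 samples lay below background) and by 0.75 in LNCaP (adjusted p = 2.03e-06; 9.26 ± 0.06 in shGA cells and 8.50 ± 0.08 in NT cells; SD, n = 4 each). TFRC, the transferrin receptor and a known HIF target, was higher by 0.35 in c42b and 0.66 in LNCaP. In c42b RBKS, the ribokinase, was higher by 0.48 and TXNIP, which restrains glucose uptake, by 0.38. CA12, a carbonic anhydrase, was higher by 0.57 in LNCaP and DDIT4, an inhibitor of mTORC1, was lower there by 0.55. The remaining calls, named after their values were seen, were ADPGK (0.32 in c42b and 0.36 in LNCaP), and ERO1A (0.39) and BHLHE40 (-0.34) in LNCaP. Most of these genes also passed in the same direction in pLVX EV minus NT cells, which uses the same NT samples. In LNCaP that difference was 1.77 for ENO2, 0.28 for TFRC, -0.59 for DDIT4, 0.47 for ADPGK and 0.44 for ERO1A. In c42b it was 0.28 for ENO2, 0.44 for TFRC, 0.56 for RBKS and 1.02 for TXNIP. CA12 and BHLHE40 in LNCaP and ADPGK in c42b were not called there. These values are given after they were seen, and the part of the shared NT samples was not tested.

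Cells labelled GABPA OE were next compared with empty-vector cells. None of the 37 genes was called in c42b or LNCaP by limma, and 2 in c42b and 0 in LNCaP were at an unadjusted p under 0.05. Over all genes 0.11% were called higher and 0.0399% lower in c42b, and 0.0349% and 0.00998% in LNCaP. The fitted differences, dim genes included, ran between -0.26 and 0.16 in c42b and between -0.15 and 0.15 in LNCaP. PDK1, a pyruvate dehydrogenase kinase, had the smallest p in c42b (adjusted p = 0.387) and lay below background. The GABPA probe itself was not raised in these cells: it averaged 8.18 ± 0.12 in OE-labelled cells and 8.15 ± 0.13 in empty-vector cells of c42b, and 8.01 ± 0.20 and 8.06 ± 0.15 in those of LNCaP (SD, n = 4 each). The study reports OE and knockdown of GABPA in its stable cells by western blot and PCR. Whether this probe reads the transcript made from the vector was not tested. None of the 68 neighbouring genes was called in this comparison in c42b or LNCaP.

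R1881 was then compared with vehicle in the control cells, NT and pLVX EV together, with 4 samples a side in each line. SLC2A3, the high-affinity glucose transporter GLUT3, and VEGFA, the vascular endothelial growth factor, rose in both lines, and none of the 37 genes fell in either. Of the 37 genes 2 were called higher and 0 lower in c42b, against 0.943% and 0.609% of all genes, and again 2 and 0 in LNCaP, against 1.65% and 1.32%. The median over the 37 genes was -0.03 in c42b and -0.02 in LNCaP, beside -0.0044 and -0.01 over all genes.

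SLC2A3 (probe ILMN_1775708) in c42b read 7.97, 8.10, 8.27 and 8.37 under R1881, against 6.71, 6.79, 6.50 and 6.71 under vehicle. In LNCaP it read 8.05, 8.0, 8.01 and 7.56 under R1881, against 6.64, 6.56, 6.41 and 6.61 under vehicle. Every vehicle sample lay below the background level, and 4 of 4 R1881 samples of c42b and 3 of 4 of LNCaP lay above it. Against the background level, the rise was at least 1.32-fold in c42b (adjusted p = 3.18e-12) and at least 1.09-fold in LNCaP (adjusted p = 3.69e-11). SLC2A14 is a near-identical copy of SLC2A3, and the probe may read both. Over all 4 vectors, 7 of 8 R1881 samples of c42b and 5 of 8 of LNCaP lay above background, against 0 of 8 vehicle samples in each line. The 2 R1881 samples of LNCaP cells with pLVX GABPa read 7.61 and 7.63, below background like their vehicle samples, so no size is given for the response there, nor for its difference from that of pLVX EV cells. A difference between the responses of the lines did not pass the test (adjusted p = 0.897), which rests on vehicle samples below background.

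VEGFA in c42b read 8.83, 8.58, 9.25 and 9.91 under R1881, against 8.07, 8.36, 8.83 and 9.11 under vehicle, where the first 2 values of each run are NT samples and the last 2 pLVX EV samples. The ranges overlapped, since the vectors differed, but within each vector the R1881 samples were the higher. In LNCaP it read 9.07, 8.98, 9.01 and 9.03 under R1881, against 8.28, 8.41, 8.74 and 8.82 under vehicle, with no overlap. The differences were 0.55 (SE 0.116, adjusted p = 0.00789) in c42b and 0.46 (SE 0.116, adjusted p = 0.0427) in LNCaP. By vector they were 0.61 in pLVX EV and 0.49 in NT cells of c42b, and 0.24 and 0.68 in those of LNCaP. A second VEGFA probe, at background (7.75), gave 0.42 (adjusted p = 0.0869) and 0.33 (adjusted p = 0.262), and the other, further below it, -0.20 and -0.09. With the mean over the 3 probes the differences were 0.26 in c42b (adjusted p = 0.219) and 0.23 in LNCaP (adjusted p = 0.299), and neither passed. The c42b call was lost in 4 and the LNCaP call in 12 of the 32 runs that left out 1 sample, while SLC2A3 was called in all of them.

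**Figure D3:**
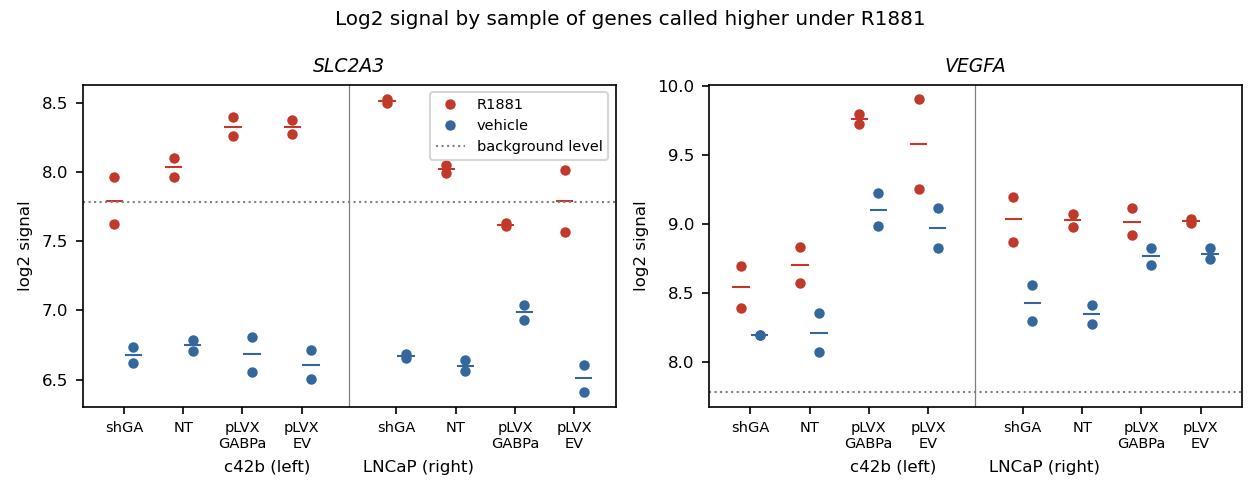
Log2 signal (y axis) by sample of SLC2A3 and VEGFA in the 4 vectors of c42b (left of the line) and LNCaP (right), R1881 in red and vehicle in blue; points are the 2 samples of a group, bars their mean, and the dotted line the background level of 7.78. SLC2A3 reads higher under R1881 with every vector. Its vehicle samples all lie below background, as do both R1881 samples of LNCaP pLVX GABPa cells.

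The glycolytic enzymes of the set did not pass the test for R1881 in either line, LDHA (-0.08 in c42b and -0.02 in LNCaP) and HK2 (-0.10 and 0.09) among them. No gene of the set passed the test of its R1881 response between the lines, a test that 0.334% of all genes passed. None passed for a vector effect that differed between arms either. The shares of all genes called there were 0.00499% in c42b and 0.02% in LNCaP for the knockdown, and 0.015% and 0% for the OE label. For an OE effect that differed between lines the share was 0.015%, and 0 of the 37 passed. The median SE of the differences between arms was 0.19, so effects that did not pass are not shown to be equal. Among the 68 neighbours 6 were higher and 1 lower under R1881 in c42b, and 6 higher and 2 lower in LNCaP. Over all genes 0.943% were higher and 0.609% lower in c42b, and 1.65% and 1.32% in LNCaP. NDRG1, a gene known to respond to both hypoxia and androgen, was higher by 1.55 in c42b (adjusted p = 2.12e-13) and 1.40 in LNCaP (adjusted p = 2.44e-12). ANKRD37, a known HIF target, was higher by 0.69 and 0.63, and PGM2, a phosphopentomutase, by 0.47 and 0.85. CITED2, which competes with HIF1A for its coactivator, was higher by 0.44 in c42b, and INSIG2, which restrains sterol synthesis, was lower by 1.03 in LNCaP. The other calls are named after their values were seen. They were TXNIP (-0.40) and EGLN2 (0.39) in c42b, and ZNF395 (-0.43), HILPDA (0.45) and ADPGK (0.34) in LNCaP. MPC2 was higher in both lines (0.32 in c42b and 0.54 in LNCaP).

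The lines themselves differed in most of the set. Between control cells, NT and pLVX EV with both arms and 8 samples a side, 14 genes were higher and 12 lower in c42b than in LNCaP. These were 37.8% and 32.4% of the 37, against 14.9% and 13.7% of all genes and 25.8% and 24.7% of the 9941 genes above background. The median over the 37 was 0.02. By role, 4 of 5 glucose entry genes and 2 of 3 pentose phosphate genes were higher, and 4 of 8 hypoxia effectors were lower and 1 higher.

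LDHB, the heart-type lactate dehydrogenase subunit, ranged between 12.28 and 13.27 with a median of 12.67 in c42b, against 11.06 to 11.96 and a median of 11.65 in LNCaP. It was higher by 1.10 (SE 0.078, adjusted p = 9.95e-13), or 2.14-fold, without overlap. PGK1 had a lowest, median and highest value of 12.92, 13.03 and 13.23 in c42b and 12.46, 12.58 and 12.74 in LNCaP, higher by 0.46. ENO1, the common enolase, had 13.99, 14.21 and 14.50 in c42b and 13.63, 13.76 and 13.99 in LNCaP, higher by 0.44. PGD, the NADPH-forming 6-phosphogluconate dehydrogenase, had 11.25, 11.42 and 11.51 in c42b and 10.52, 11.02 and 11.23 in LNCaP, higher by 0.44. HK2 was higher by 0.39, HK1 by 0.36 and GPI, the phosphoglucose isomerase, by 0.32. SLC2A3 was called higher too (adjusted p = 0.0353), but its means lay below background in both lines, with 4 of 8 c42b and 3 of 8 LNCaP samples above it, so no size is given, and the call was lost in 8 of the 32 runs that left out 1 sample. TALDO1, the transaldolase, was higher by 0.35, PFKP by 0.29, P4HA2, a collagen prolyl hydroxylase, by 0.24 and PFKFB3 by 0.18, and TKT did not pass.

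Lower in c42b were BNIP3L and BNIP3, a pair of mitophagy receptors and known HIF targets. BNIP3L had 9.53, 9.86 and 10.53 in c42b and 10.60, 10.81 and 11.08 in LNCaP as lowest, median and highest value, a fall of 0.86 (SE 0.071, adjusted p = 2.82e-11). BNIP3 was lower by 0.36. ALDOC had 11.16, 11.29 and 11.80 in c42b and 11.74, 12.10 and 12.51 in LNCaP, lower by 0.70. PGAM1, the common phosphoglycerate mutase, had 11.16, 11.63 and 12.03 in c42b and 11.49, 12.17 and 12.40 in LNCaP, lower by 0.46. SLC2A1, the basal glucose transporter GLUT1, had 9.21, 9.42 and 9.59 in c42b and 9.63, 9.86 and 9.98 in LNCaP, lower by 0.43, with no overlap. HIF1A was also lower, by 0.33 (adjusted p = 0.00119), and did not overlap, though its 2 other probes gave -0.13 (adjusted p = 0.254) and -0.22 (adjusted p = 0.0682). The remaining genes lower in c42b were PFKL (-0.35), PDK3 (-0.29), ALDOA (-0.26), P4HA1 (-0.23), PFKFB4 (-0.20) and MXI1 (-0.20). For PDK3 the 2 probes went opposite ways, with 0.40 for the other (adjusted p = 5.35e-06), so that its direction is not settled. With the mean over the probes of a gene, the calls of PFKP (0.15, adjusted p = 0.0765), PFKL (-0.16, adjusted p = 0.0592) and P4HA1 (-0.16, adjusted p = 0.0564) were lost as well. HK1 (0.14), P4HA2 (0.15) and TALDO1 (0.22) kept theirs at smaller values.

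For several of these genes the difference was unlike in the 2 control vectors. Between pLVX EV cells PFKP differed by 0.00, PFKFB3 by 0.01, ALDOA by -0.04 and BNIP3 by -0.11, against 0.57, 0.36, -0.49 and -0.62 between NT cells. BNIP3L differed by -0.56 between pLVX EV cells and by -1.16 between NT cells, and MXI1 by -0.13 and -0.28. PGD was at 0.70 between pLVX EV cells and 0.17 between NT cells, TALDO1 at 0.55 and 0.15, and P4HA2 at 0.40 and 0.09. Some genes not called between the lines went opposite ways in the 2 vectors. GAPDH in NT cells averaged 14.31 with R1881 and 14.21 with vehicle in c42b, against 14.12 and 14.07 in LNCaP. In pLVX EV cells it averaged 13.65 and 13.64 in c42b, against 13.99 and 13.98 in LNCaP. TPI1 went the same ways as GAPDH in both arms, and VEGFA the reverse ways. Whether these line differences are unlike between the 2 vectors was not tested.

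The remaining higher calls were dim, like SLC2A3. EGLN1, the main oxygen-sensing prolyl hydroxylase, was below background in all 8 LNCaP samples and was at least 1.02-fold higher in c42b (adjusted p = 0.00197). EPAS1 was below background in all 8 LNCaP and 7 of 8 c42b samples and is given no fold (adjusted p = 0.0483), and its call was kept in 8 of the 32 runs that left out 1 sample, as MXI1 kept its call in 19. Of the 68 neighbours 9 were higher and 18 lower in c42b, against 14.9% and 13.7% of all genes. Of the genes above background 25.8% were higher and 24.7% lower. ENO2 was lower by 1.56 and INSIG2 by 0.90, TFRC was higher by 0.89 and PGM2 lower by 0.87. These values are averages over the 2 control vectors. ENO2 averaged 7.97 in pLVX EV and 7.69 in NT cells of c42b, against 10.28 and 8.50 in those of LNCaP. The mean of the c42b NT cells lay below background.

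**Figure D4:**
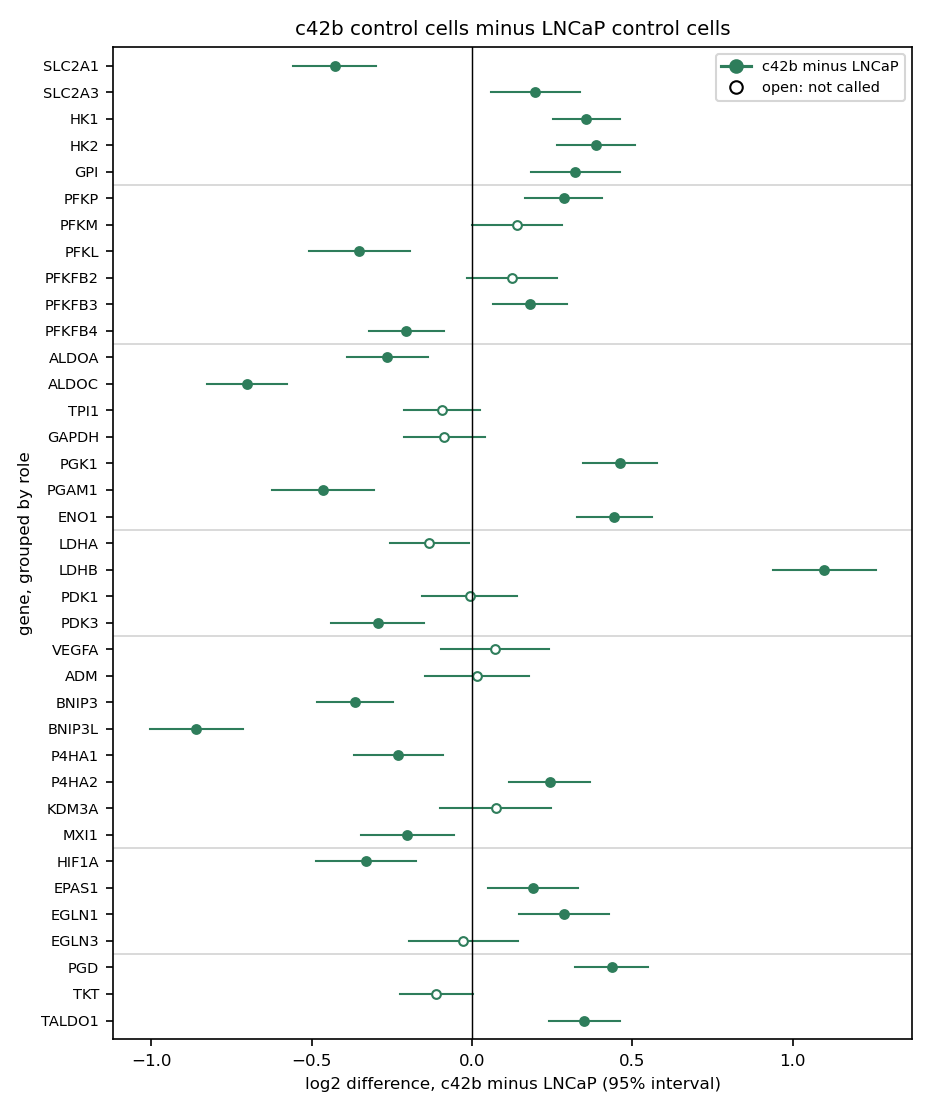
Log2 difference of c42b minus LNCaP control cells (x axis) for each of the 37 genes (rows, grouped by role), with its 95% interval from limma; filled points passed the test. LDHB lies furthest to the right at 1.10 and BNIP3L furthest to the left at -0.86.

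The empty pLVX vector was compared with the non-targeting hairpin, since both serve as controls. Backbone, selection, any doxycycline and separate culture differ together between these cells and cannot be told apart. In c42b 5 of the 37 genes were higher and 10 lower in pLVX EV cells, and in LNCaP 2 were higher and 7 lower. Over all genes 10.1% were higher and 8.79% lower in c42b and 5.67% and 5.23% in LNCaP, and over genes above background 18.5% and 15.6% in c42b and 10.2% and 9.89% in LNCaP. In c42b 4 of 7 genes from aldolase to enolase and 3 of 4 lactate and pyruvate genes were lower, and 4 of 8 hypoxia effectors were higher. In LNCaP 1 of 7, 2 of 4 and 0 of 8 were so, and 3 of 3 pentose phosphate genes were lower. With each array centred on its median in place of quantile normalization, the c42b counts were 3 higher and 11 lower, and BNIP3 and ALDOC did not pass.

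In c42b LDHA read 12.52, 12.59, 12.74 and 12.69 in pLVX EV samples, against 13.56, 13.72, 13.63 and 13.67 in NT samples. It was lower by 1.01 (SE 0.085, adjusted p = 1e-10), or 0.496-fold, and its second probe by 1.03. GAPDH, which is often used as a reference gene, read 13.73, 13.57, 13.56 and 13.73 in pLVX EV samples, against 14.39, 14.24, 14.23 and 14.19 in NT samples, lower by 0.61 (SE 0.088, adjusted p = 3.3e-06). All 3 GAPDH probes were called, at -0.59 to -0.61. PFKFB3, which makes the same activator as PFKFB4, read 8.55, 8.62, 8.54 and 8.51 in pLVX EV samples, against 9.17, 9.27, 9.22 and 9.27 in NT samples, lower by 0.68, while its second probe (8.21) gave -0.09. PFKP read 9.99, 9.75, 10.01 and 9.87 in pLVX EV samples, against the NT values given above, lower by 0.59. With the mean over the probes of a gene these falls were 0.67 for LDHA, 0.38 for PFKFB3 and 0.35 for PFKP in c42b, and LDHA in LNCaP was at -0.37; all were called. The knockdown and this comparison share those NT samples in c42b.

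Also lower in pLVX EV cells of c42b were LDHB (-0.55), TPI1 (-0.53), PGAM1 (-0.50), TKT (-0.44), ENO1 (-0.34) and PDK3 (-0.33), with the second TPI1 probe at -0.26 (adjusted p = 0.146). PGAM4, a retrogene near-identical to PGAM1, was lower by 0.76 among the neighbours, and the probes of these copies may read each other. Of the hypoxia effectors, VEGFA was higher by 0.82 (SE 0.116, adjusted p = 3.1e-06), with 9.28 ± 0.46 in pLVX EV cells and 8.46 ± 0.32 in NT cells (SD, n = 4 each), and by 0.46 with the mean over its probes. BNIP3L read 10.35, 9.99, 10.53 and 10.52 in pLVX EV samples, against 9.53, 9.73, 9.67 and 9.62 in NT samples, higher by 0.71 (SE 0.101, adjusted p = 3.17e-06). BNIP3 read 12.26, 12.39, 12.36 and 12.35 in pLVX EV samples, against 12.00, 11.91, 12.05 and 11.80 in NT samples, higher by 0.40, and P4HA2 read 9.07, 9.41, 9.21 and 9.23, against 8.92, 8.95, 8.74 and 8.71, also higher by 0.40. ALDOC was higher by 0.30.

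In LNCaP all 3 pentose phosphate genes were lower in pLVX EV cells. TKT read 11.66, 11.54, 11.79 and 11.90 in pLVX EV samples, against 12.48, 12.38, 12.52 and 12.66 in NT samples, lower by 0.79 (SE 0.078, adjusted p = 1.23e-08). PGD read 10.52, 10.59, 10.84 and 10.82 in pLVX EV samples, against 11.23, 11.23, 11.23 and 11.20 in NT samples, lower by 0.53 (SE 0.079, adjusted p = 1.62e-05). TALDO1 was lower by 0.25 (adjusted p = 0.0415), a call lost in 5 of 9 alternatives, at -0.09 (adjusted p = 0.658) with the mean over its probes. LDHA read 12.99, 12.88, 13.09 and 12.90 in pLVX EV samples, against 13.70, 13.48, 13.56 and 13.58 in NT samples, lower by 0.61 (SE 0.085, adjusted p = 5.37e-06). PGAM1 read 11.79, 11.90, 12.15 and 11.49 in pLVX EV samples, against 12.19, 12.37, 12.29 and 12.40 in NT samples, lower by 0.48 (SE 0.110, adjusted p = 0.00426). Without the second vehicle sample of LNCaP pLVX EV, PGAM1 was at -0.31 and did not pass (adjusted p = 0.0858). LDHB (-0.42) and PFKFB3 (-0.33) were lower too. ALDOC read 12.32, 12.35, 12.37 and 12.51 in pLVX EV samples, against 11.78, 11.74, 11.83 and 11.88 in NT samples, higher by 0.58 (SE 0.087, adjusted p = 1.85e-05). EPAS1 was called higher (adjusted p = 0.0328) with all 8 samples below background, so no fold is given. The differences between the lines in this comparison were not tested.

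When all 8 pLVX samples of a line, both arms and both pLVX vectors, were set against its 8 hairpin samples, 1 gene was higher and 6 lower without overlap in c42b, and 1 higher and 5 lower in LNCaP. Of all genes 5.3% were higher and 5.39% lower without overlap in c42b, and 2.89% and 3.09% in LNCaP. Of the genes above background 10.3% were higher and 10.1% lower in c42b, and 5.47% and 6.04% in LNCaP. The lower genes of c42b were PFKFB3, TPI1, GAPDH, PGAM1, ENO1 and LDHA, and BNIP3 was the higher one. In LNCaP PFKFB3, LDHA, PGD, TKT and TALDO1 were lower and ALDOC was higher. LDHA had a median of 12.64 in pLVX and 13.59 in hairpin samples of c42b, and 12.95 and 13.48 in those of LNCaP. Among the neighbours 11 were higher and 16 lower in pLVX EV cells of c42b, with DDIT4 higher by 1.29 and TXNIP by 1.02, and PKM, the pyruvate kinase, at -0.64. In LNCaP 11 were higher and 4 lower, with ENO2 higher by 1.77, INSIG2 by 0.76 and CITED2 by 0.55 and DDIT4 lower by 0.59. By the same test 10.1% of all genes were higher and 8.79% lower in c42b, and 5.67% and 5.23% in LNCaP. Of the genes above background these shares were 18.5% and 15.6% in c42b, and 10.2% and 9.89% in LNCaP. Of the 37 genes, 6 passed in none of the 9 comparisons of levels: PFKM, the muscle-type phosphofructokinase, PFKFB2, PDK1, ADM, which encodes the vasodilator peptide adrenomedullin, KDM3A, a histone demethylase, and EGLN3, a prolyl hydroxylase. PDK1, ADM and EGLN3 lay below background, and the differences of the other 3 ran between -0.22 (PFKFB2) and 0.22 (KDM3A).

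**Figure D5:**
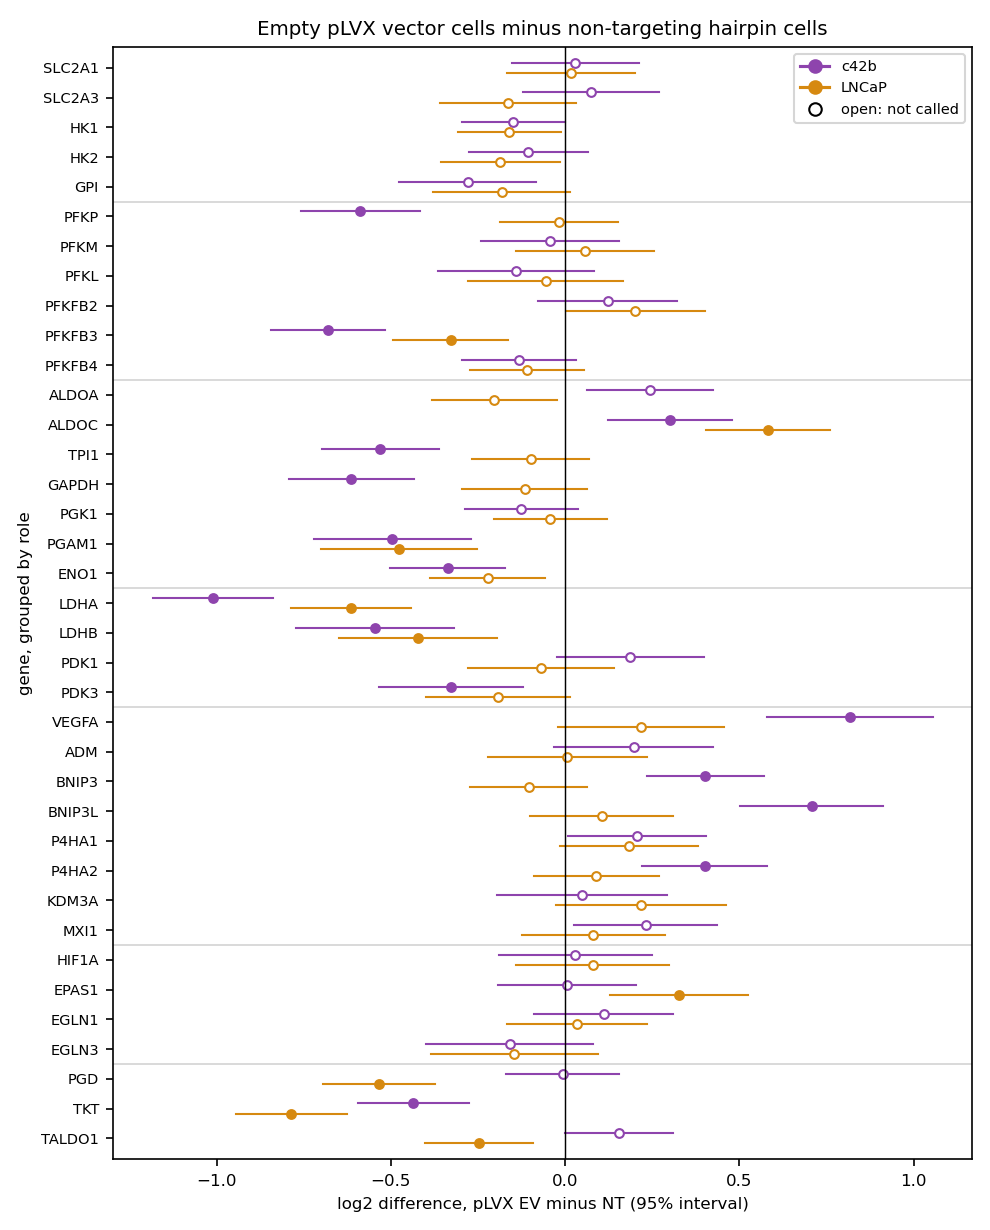
Log2 difference of pLVX EV minus NT cells (x axis) for each of the 37 genes (rows, grouped by role) in c42b (purple) and LNCaP (orange), with 95% intervals from limma; filled points passed the test. LDHA reaches -1.01 in c42b and -0.61 in LNCaP, and VEGFA 0.82 in c42b.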

How the data were processed

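RNA of 32 cell samples was labelled and hybridised to Illumina HT-12 version 4 arrays, 4 of them on repeat arrays, 36 arrays in all. The authors removed spatial artefacts with the BASH and HULK algorithms of beadarray and deposited intensity values per probe. They also deposited a table of log2 values, quantile normalized. Versions were not given in the sources used here. No detection p-values were in the intensity table, and 94 of its values were missing. Array medians ran from 178.3 to 225.

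Log2 was taken of these intensities, which were quantile normalized and averaged over repeat arrays, whose log2 differences had an SD of 0.21 to 0.23. They differed from the deposited log2 table by a median of 0.000159. Of 47231 probes, 30113 named 1 gene in the platform annotation, with symbols updated through RefSeq, and each gene was read from its brightest probe. A model with 1 mean for each of 16 groups was fitted with limma 3.58.1 in R 4.3.3. Benjamini-Hochberg adjustment ran across every probe, and took together the 6 main comparisons (knockdown, OE and R1881 in each line), the 6 interactions likewise, and each other comparison alone, with calls at an adjusted p under 0.05. Precision was limited by how few arrays there were (median SE 0.100). The scripts were tested on simulated data. The deviations of same-numbered samples were at most weakly correlated, and samples were not paired in the model. Whether same-numbered samples were grown or run together is not settled by this. The 40 genes and the 73 neighbouring genes, 68 of them measured, were chosen with earlier results of these data known. All called genes are named, with values by sample for those called in a main comparison and for the extremes of the line and vector comparisons, and neighbours at most 4 a comparison by size, with those outside this rule named as such. The alternatives were a replicate block, normexp with an offset of 50, median centring, the authors' log2 table, brighter probes only, the mean over the probes of a gene, adjustment within each comparison, no repeat arrays, a separate fit for each line and each sample left out.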

Additional observations from a re-analysis of the deposited data

Results flagged for a closer look

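ALDOC was singled out because the effect of GABPA knockdown on it differed between the lines by a test of that difference. The difference, c42b minus LNCaP, was 0.6361 log2 (adjusted p = 0.0196), from 0.22 higher in shGA than in NT cells of c42b and 0.41 lower in shGA than in NT cells of LNCaP. The call was lost with normexp (adjusted p = 0.0523) and in 9 of the 32 runs that left out 1 sample. The 2 effects were seen in each arm, at 0.26 with R1881 and 0.18 with vehicle in c42b, and at -0.45 and -0.38 in LNCaP. ALDOC also differed between LNCaP and c42b control cells and between pLVX EV and NT cells of each line, and the part of those vector differences in this result was not tested.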

How the results depend on the processing

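Of 61 calls among the 37 genes, 38 held under every alternative of the 9 that could be fitted for them and in every run that left out 1 of the 32 samples. The calls on knockdown in c42b numbered 3, and 1 without repeat arrays or with a separate fit for each line, PFKP being the one kept. PFKFB4 was also lost with normexp (adjusted p = 0.0561) and with median centring (adjusted p = 0.235). It kept its call in 5 of the 9 alternatives, and HK2 in 7. With 1 sample left out HK2 ran between -0.38 and -0.29 and PFKFB4 between 0.29 and 0.34. The R1881 calls numbered 2 in LNCaP, and 1 with normexp, with brighter probes only or with the mean over the probes of a gene; leaving out 1 sample gave 1 to 2. In c42b they numbered 2, and 1 with brighter probes only or with the mean over the probes; leaving out 1 sample gave 1 to 2. Brighter probes leave out SLC2A3 by construction, and the mean over probes takes in dim VEGFA probes. The 1 interaction, ALDOC, was 0 with normexp (adjusted p = 0.0523) and 0 to 1 with 1 sample left out, being lost in 9 of the 32 runs. Between pLVX EV and NT cells, the LNCaP calls of PGAM1 and PFKFB3 were each lost without 1 sample (the second and the first vehicle sample of LNCaP pLVX EV; PFKFB3 at -0.26, adjusted p = 0.0686). Other calls of that comparison were also lost in some runs that left out 1 sample. In LNCaP these were LDHB (-0.49 to -0.35), TALDO1 (-0.28 to -0.22) and the dim EPAS1. In c42b they were PDK3 (-0.39 to -0.26) and ALDOC (0.20 to 0.40). PDK3 in c42b against LNCaP reversed, to 0.05232 (adjusted p = 0.638), with the mean over its probes. Of the 16 pairs of same-numbered samples 3 had deviations correlated above 0.1, and over all pairs the correlations ran between -0.169 and 0.169. Such weak correlations do not settle whether same-numbered samples were handled together. With the replicate block EPAS1 between the lines was 0.1903 (adjusted p = 0.0512) and no longer passed, and no other of the 61 calls was lost. With that block 16 in place of 15 genes passed between pLVX EV and NT cells of c42b.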
